A study of Homo sapiens with 12 samples.

Results

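Histone genes of the HIST1, HIST2, HIST3 and HIST4 clusters were followed as transcript fragments in extracellular vesicles (EV) shed along the differentiation of human induced pluripotent stem cells (hiPSC) into cardiomyocytes. The members are the 69 protein_coding entries of the gencode table whose symbol starts with HIST1H, HIST2H, HIST3H or HIST4H, out of 39666 gencode features and 13577 protein_coding ones, and 67 of the 69 had a count. They comprise 5 linker histone H1 genes and 17 H2A, 17 H2B, 15 H3 and 15 H4 genes, of which 53 lie in the HIST1 cluster, 12 in HIST2, 3 in HIST3 and 1 in HIST4.

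All EV came from 1 established line, iPS(IMR90)-4, with 3 libraries per group from separate cultures. hiPSC-EV were taken at day 0 after 24 h of conditioning in the stem cell expansion medium TeSR-E8. CPC-EV, from cardiac progenitor cells, were taken at day 6 after 72 h, following CHIR99021, Activin A and IWR1 treatment. CMi-EV and CMm-EV, from immature and more mature cardiomyocytes in 3D aggregates, were taken at days 15 and 35 after 48 h each, the CMm-EV in glucose-free medium with galactose and fatty acids. Medium and stage changed at every step, conditioning time at each step up to CMi-EV, and culture format between CPC-EV and CMi-EV. The parts of factors that changed together cannot be told apart.

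Replication-dependent histone genes supply the protein that packages newly made DNA, and their messenger RNA is made mainly while cells replicate DNA. These messengers end in a conserved stem-loop instead of a poly(A) tail, and the loss of that stem-loop's protection at the end of replication lets them decay quickly. H2A, H2B, H3 and H4 form the nucleosome core and H1 binds the DNA between nucleosomes.

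The stem-loop is the feature that sets these transcripts apart, so it is shown for members on which the results turn, as 26 bases (fewer where the transcript ends earlier) of the GENCODE v44 transcript with the stem-loop in capitals.
HIST1H4E: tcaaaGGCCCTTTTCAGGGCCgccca
HIST1H4C: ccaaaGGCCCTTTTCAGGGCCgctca
HIST1H4B: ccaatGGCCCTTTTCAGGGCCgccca
HIST1H4J: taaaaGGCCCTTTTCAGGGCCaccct
HIST1H2AE: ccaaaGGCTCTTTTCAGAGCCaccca
HIST1H2AM: caaaaGGCTCTTTTCAGAGCCaccca
HIST1H3D: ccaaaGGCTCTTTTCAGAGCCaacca
HIST1H3G: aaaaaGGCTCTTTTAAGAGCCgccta
HIST1H1C: caaaaGGCTCTTTTCAGAGCCacca
A search for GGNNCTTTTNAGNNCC on the transcript strand, in a single annotated transcript per member, found the stem-loop in 66 of the 69 members. Over every protein-coding transcript of 19771 genes it was found in 94 genes (0.475%), so the counts come from unlike searches. The exceptions HIST1H3E, HIST1H4L and HIST1H2BI lack these letters in the annotated transcript searched.

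HIST1H4E encodes histone H4 and lies at chr6:26204610-26205021 on the plus strand of GRCh38, where its 412-base transcript fills the whole gene as 1 exon. HIST1H4J lies at chr6:27824092-27824480, also on the plus strand, with a transcript of 389 bases. To set the H4 members described here side by side, the 80 bases before the start of 5 of them (RefSeq, GRCh38.p14, transcript strand) are given with the letters TATAA and GGTCCG in capitals.
HIST1H4E, chr6:26204530-26204609, plus strand: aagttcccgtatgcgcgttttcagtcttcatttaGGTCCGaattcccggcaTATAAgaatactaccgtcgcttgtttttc
HIST1H4B, chr6:26027284-26027363, minus strand: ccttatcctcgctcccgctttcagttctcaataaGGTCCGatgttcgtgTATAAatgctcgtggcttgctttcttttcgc
HIST1H4H, chr6:26285535-26285614, minus strand: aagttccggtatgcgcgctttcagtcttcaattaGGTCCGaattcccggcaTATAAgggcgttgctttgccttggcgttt
HIST1H4J, chr6:27824012-27824091, plus strand: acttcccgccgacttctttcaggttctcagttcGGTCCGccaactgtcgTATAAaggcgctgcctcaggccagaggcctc
HIST1H4I, chr6:27139202-27139281, plus strand: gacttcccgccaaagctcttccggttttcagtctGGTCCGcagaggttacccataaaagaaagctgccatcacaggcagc
GGTCCG began 46 bases before the start in HIST1H4E, HIST1H4B, HIST1H4H and HIST1H4I and 47 bases before it in HIST1H4J. The capitals do not overlap. Searched on both strands from 250 bases before to 50 bases after the start, GGTCCG was present in 12 of 13 H4 members with a promoter in the table and in 11.2% of 27305 promoters. TATAA was present in 59 of the 64 matched members (92.2%) against 21.1% of all promoters, and CCAAT in 84.4% against 35.7%. Among H4 members CCAAT was found in 3 of 13 (23.1%), while every searched member of the other families held it. ATTTGCAT was present in 13 of 17 H2B and 11 of 16 H2A members against 1.80% of all promoters. These matches describe letters in a window and no binding.

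The gencode counts of a library ranged from 131423 in CMm-EV 1 to 1908539 in hiPSC-EV 3, with group sums, from hiPSC-EV to CMm-EV, of 3047620, 2848921, 1163829 and 746748. Protein_coding entries took 9.02 to 27.6% of them. CPM are gencode counts scaled to a common library total after TMM scaling (the trimmed mean of M-values) over all 12 libraries, with factors from 0.392 in hiPSC-EV 3 to 1.83 in CMm-EV 1. Counts are expected counts in which a read that matched several entries was divided, and 69.9% of the non-zero values were not whole. A sequence count shows where this bears on the members: a median of 19.4% of a member's 25-base windows also occur in another gene (range 0.210 to 100%), 6.96% for HIST1H4E, 2.36% for HIST1H4C and 92.6% for HIST1H4J. Of 13 cardiomyocyte transcripts listed, 3 of 3 tested rose in CPC-EV over hiPSC-EV, beside 4.45% of all features, and 8 of 8 in CMm-EV over hiPSC-EV, beside 7.29%. Apart from TTN, these genes had no count in at least one hiPSC-EV library and passed the filter on low values through the other group alone, which fixed their direction, so neither count supports anything about the list. TTN, which encodes the giant sarcomere protein titin, had a mean of 8041 CPM in CMm-EV against 72.4 CPM at day 0. The endoderm and liver list rested on 2 transcripts, with summed means of 2.57 to 54.4 CPM, and the endothelial list on 4, with means of 0.777 to 50.5 CPM.

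Histone fragments were most abundant in CPC-EV. The 69 members together took 1.18%, 1.38% and 0.967% of the gencode counts in the 3 CPC-EV libraries, against 0.213%, 0.280% and 0.137% in hiPSC-EV. In CMi-EV they took 0.134%, 0.0530% and 0.0357%, and in CMm-EV 0.00406%, 0.0285% and 0.0259%. Every CPC-EV library lay above every other library, while CMi-EV 1 lay close under the lowest hiPSC-EV library.

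The group means, in the order hiPSC-EV, CPC-EV, CMi-EV, CMm-EV, were 0.210% ± 0.0712, 1.18% ± 0.206, 0.0742% ± 0.0524 and 0.0195% ± 0.0134 (SD, n = 3 each). This is a 5.60-fold difference between CPC-EV and hiPSC-EV and a 15.9-fold difference between CPC-EV and CMi-EV. Over the counts of all 5 RNA classes the log2 ratio of CMi-EV to CPC-EV was -4.64 instead of -3.99 and that of CMm-EV to CMi-EV -3.46 instead of -1.93. Of protein_coding counts alone the share was 1.70% ± 0.594, 5.78% ± 0.695, 0.435% ± 0.292 and 0.102% ± 0.0761, a 3.40-fold difference between CPC-EV and hiPSC-EV. In TMM-scaled CPM the sums were 3299 ± 1140, 10046 ± 1984, 693 ± 437 and 182 ± 146, and the same difference was 3.05-fold. Wilson 95% intervals, which cover counting error only because PCR reads without molecular identifiers are not independent molecules, spanned 1.16 to 1.21% in CPC-EV 1 and 0.197 to 0.230% in hiPSC-EV 1. EV of whole cultures were sequenced, so fewer cells of a type and less RNA per cell cannot be told apart.

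**Figure D1:**
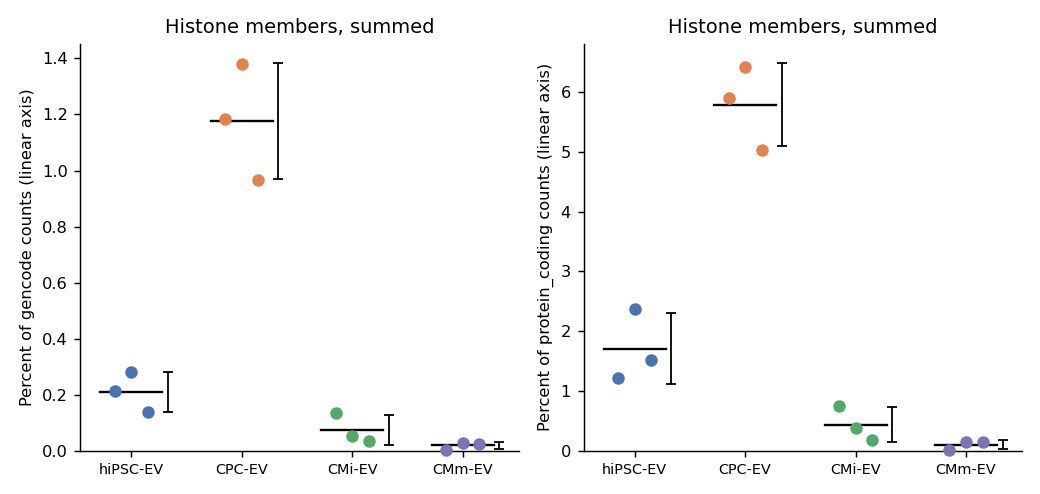
Summed share of the histone members in each of the 12 libraries, as percent of gencode counts on the left and of protein_coding counts on the right (linear axes from 0). Points are libraries, horizontal lines group means and bars to their right 1 SD in each direction (n = 3). The CPC-EV libraries, at 0.967 to 1.38% of gencode counts, lie above all others.

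Fewer members were seen in the later groups. In hiPSC-EV 67 members had a count in at least 1 library and 39 had one in all 3, against 67 and 60 in CPC-EV. In CMi-EV 26 members had a count and 3 had one in all 3 libraries, namely HIST1H4E, HIST1H4C and HIST1H2AM. The count of HIST1H2AM in CMi-EV 3 equalled that of HIST1H2AG and may be reads divided between them. In CMm-EV 11 had a count and only HIST2H2AA4, an H2A gene with a near-identical copy, had one in all 3. The gencode depth of CMi-EV and CMm-EV was lower, and 0 counts over a group allow up to 2.51 CPM in CMi-EV, 3.29 CPM in CMm-EV, 1.87 CPM in hiPSC-EV and 0.898 CPM in CPC-EV. At 307432 gencode counts hiPSC-EV 1 had 39 members with a count. CMi-EV 1 and CMi-EV 2, at 445688 and 499729, had 16 and 20. The part of depth in the members seen was not tested. Counts were rounded, so a gene without a count may hold a fraction of a read.

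**Figure D2:**
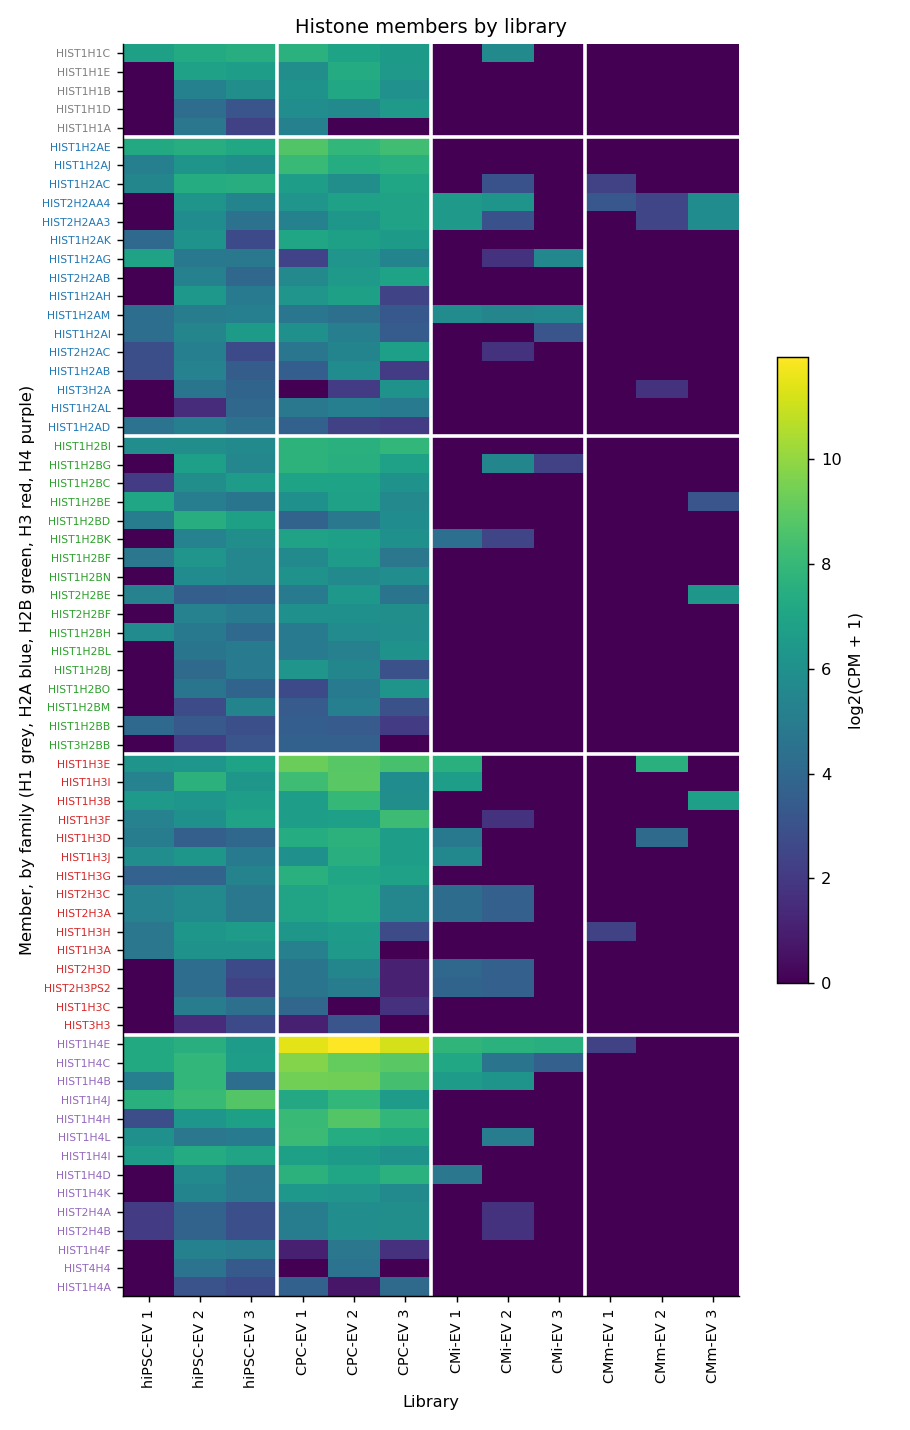
Heatmap of the 67 members with a count (rows, by family and then by mean level) in the 12 libraries (columns), coloured by log2(CPM + 1). Most rows are filled in hiPSC-EV and CPC-EV and dark in CMi-EV and CMm-EV, and the row of HIST1H4E is the brightest in CPC-EV.

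All 5 families were higher in CPC-EV than in hiPSC-EV in TMM-scaled CPM, by different amounts. H4 sums were 704.4, 1391 and 1028 CPM in the hiPSC-EV libraries and 5544, 6489 and 4091 CPM in the CPC-EV libraries, a 5.16-fold difference of the means with no overlap. H3 differed 2.67-fold, H2B 1.87-fold, H2A 1.86-fold and H1 1.51-fold. The libraries of H3, H2B and H2A did not overlap, while H1, with 111.1, 352.0 and 347.4 CPM against 419.1, 472.7 and 328.3 CPM, did. These are sums without a test, and without TMM scaling the ratios were 9.31, 4.89, 3.50, 3.41 and 2.99 in the same order.

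H4 accounted for 31.8% ± 2.34 of the histone counts in hiPSC-EV and for 53.3% ± 1.58 in CPC-EV (n = 3 each). Shares of H2A and H2B were 21.2% ± 1.12 and 17.96% ± 0.909 in hiPSC-EV and 13.5% ± 3.45 and 11.2% ± 0.936 in CPC-EV. H1 took 7.81% ± 2.30 and 4.06% ± 0.0783, and H3 21.2% ± 1.40 and 18.01% ± 2.88. In CMi-EV the H4 sums were 490.5, 331.0 and 196.0 CPM and the H2A sums 220.8, 132.9 and 101.9 CPM. The H3 sums were 433.8, 48.9 and 0 CPM, the H2B sums 19.5, 48.9 and 3.92 CPM and the H1 sums 0, 51.3 and 0 CPM. All lay below the CPC-EV libraries, and since single libraries carried H3, H2B and H1, no order of the families is drawn. H1 had no count in CMm-EV.

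Between CPC-EV and hiPSC-EV, HIST1H4E rose most among the members called. The question of this comparison was what changed in the EV as pluripotent cells became cardiac progenitors. HIST1H4E measured 152.3, 179.7 and 94.9 CPM in hiPSC-EV and 2853, 3971 and 2331 CPM in CPC-EV. All CPC-EV libraries were above all hiPSC-EV libraries. Its log2 fold change was 4.36 ± 0.46 (SE, FDR = 0.0203, quasi-likelihood test of edgeR with Benjamini-Hochberg adjustment over all 3056 features tested). Over the 12 alternatives without a replicate block its FDR ran from 1.06e-25 to 0.0519 and 10 kept the call, the 2 others being those without hiPSC-EV 3 (FDR = 0.0514) and without CPC-EV 3 (FDR = 0.0519). With a replicate block HIST1H4E was not called (log2 fold change 4.38, FDR = 0.144).

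Among protein_coding entries, HIST1H4E had the second, the first and the second highest count in CPC-EV 1, 2 and 3 (ranks 2, 1 and 2). Its rank was 165, 87 and 293 in the hiPSC-EV libraries and 80, 98 and 122 in CMi-EV. Per kilobase of transcript its mean level in CPC-EV was 7407 CPM, followed among the members by HIST1H4C with 1549 and HIST1H4B with 1431. In hiPSC-EV the order per kilobase was HIST1H4J with 774.8 CPM, HIST1H4C with 406.5 and HIST1H4E with 345.4.

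Of the 69 members 55 passed the filter of 5 CPM in each library of at least 1 group, and 5 of them rose (FDR up to 0.05, log2 fold change from 1 upwards) while none fell. Of all features tested 4.45% rose in CPC-EV and 6.58% fell. Only 39 of the 69 members had a count in all 3 hiPSC-EV libraries, against 60 in CPC-EV. Some of the 55 thus passed the filter through CPC-EV alone, which favoured a rise. Neither the count that rose nor the lack of a fall therefore supports anything about the list. With a count of 0 members called lower, 16 of the 55 had an unadjusted p under 0.05, beside 745 of all 3056 features. A fold change below 0 was seen in 11 of the 55. DESeq2 called 16 members, 14 of them higher and HIST1H4J and HIST1H2AD lower, beside 683 of the 3056 features. The median log2 fold change of the 55 members was 1.36, beside 0.11 for all features and -0.18 for protein_coding features. Because some of the 55 passed through CPC-EV alone, this median supports nothing about the list either. With only protein_coding features in library size, scaling and test, 47 of 258 called features were higher, beside 136 of 337 with all features. Without hiPSC-EV 3 or without CPC-EV 3 no member and no feature was called. Without CPC-EV 1 the members called were 1, beside 459 of 3829 features. Without hiPSC-EV 2 or CPC-EV 2 they were 2, beside 159 of 3420 and 426 of 3688 features.

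The other 4 members that rose belong to H3 and H2B. HIST1H3E measured 73.0, 77.8 and 121.6 CPM in hiPSC-EV and 609.1, 464.2 and 351.8 CPM in CPC-EV (log2 fold change 2.35 ± 0.45, FDR = 0.0213). HIST1H3D measured 31.7, 11.1 and 14.7 CPM against 168.1, 203.3 and 100.5 CPM (log2 fold change 2.99 ± 0.71, FDR = 0.0334). Both encode histone H3, and their groups did not overlap. A share of 96.7% of the windows of HIST1H3D also occur in another gene, so its count is uncertain.

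HIST1H3G, another H3 gene, measured 12.7, 13.0 and 40.1 CPM in hiPSC-EV and 194.3, 134.0 and 112.8 CPM in CPC-EV (log2 fold change 2.69 ± 0.71, FDR = 0.0481). HIST1H2BI, an H2B gene, measured 57.1, 59.3 and 52.1 CPM against 208.5, 192.9 and 242.3 CPM (log2 fold change 1.87 ± 0.47, FDR = 0.0406). HIST1H2BI had the tighter replicates of the pair. With median-of-ratios scaling or a filter of 5 counts, HIST1H3G and HIST1H2BI were no longer called and HIST1H4E, HIST1H3E and HIST1H3D were.

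**Figure D3:**
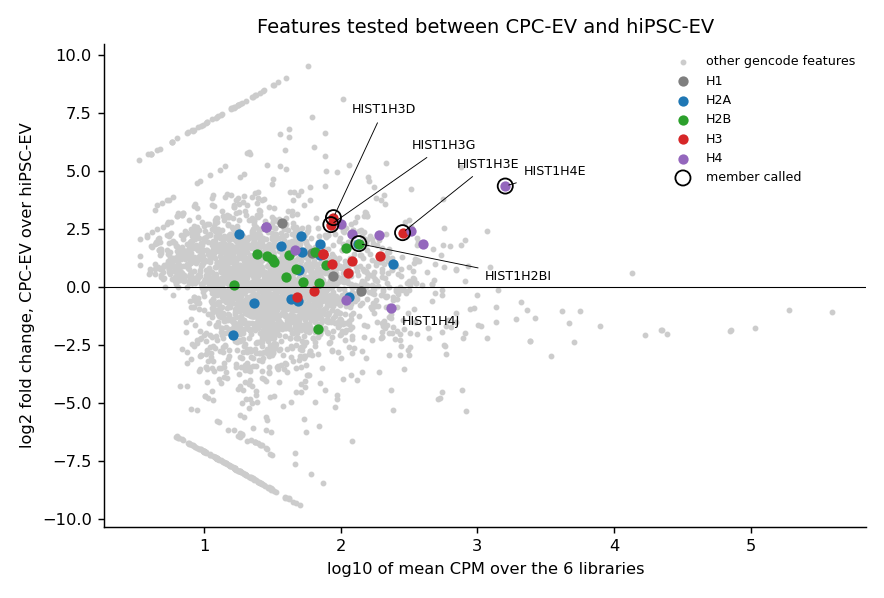
Log2 fold change of CPC-EV over hiPSC-EV (vertical) against the log10 of the mean CPM over the 6 libraries (horizontal) for the 3056 features tested. Members are coloured by family and the 5 called members are circled, with HIST1H4E at 4.36 and HIST1H4J at -0.92.

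Other abundant members missed the threshold. HIST1H4C (H4) measured 152.3, 242.7 and 98.9 CPM in hiPSC-EV and 841.6, 567.5 and 472.4 CPM in CPC-EV, with a log2 fold change of 1.87 ± 0.50 (FDR = 0.0511). HIST1H4B (H4) measured 34.9, 242.7 and 18.7 CPM against 678.9, 648.6 and 338.4 CPM (log2 fold change 2.43 ± 0.94, FDR = 0.160). HIST1H4H (H4) measured 6.35, 77.8 and 110.9 CPM against 268.5, 431.5 and 243.4 CPM (log2 fold change 2.23 ± 0.83, FDR = 0.145). In all 3 genes the hiPSC-EV libraries were spread widely.

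The H2A genes HIST1H2AE and HIST1H2AJ and the H3 genes HIST1H3I and HIST1H3B were likewise not called. HIST1H2AE had a log2 fold change of 0.99 ± 0.43 (FDR = 0.204) and HIST1H2AJ of 1.87 ± 0.53 (FDR = 0.0638). HIST1H3I had 1.32 ± 0.87 (FDR = 0.393) and HIST1H3B 0.59 ± 0.64 (FDR = 0.619). The linker histone gene HIST1H1C measured 111.1, 155.6 and 176.4 CPM in hiPSC-EV and 196.5, 120.3 and 89.3 CPM in CPC-EV, overlapping groups with a log2 fold change of -0.16 ± 0.52 (FDR = 0.872).

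HIST1H4J, another H4 gene, had its higher mean in hiPSC-EV, unlike HIST1H4E. It measured 193.6, 272.4 and 438.3 CPM in hiPSC-EV and 149.5, 243.9 and 96.0 CPM in CPC-EV. The groups overlapped, and its log2 fold change of -0.92 ± 0.52 did not pass (FDR = 0.322). HIST1H4I, another H4 gene, measured 95.2, 164.9 and 125.6 CPM against 110.2, 90.2 and 69.2 CPM (log2 fold change -0.56 ± 0.52, FDR = 0.551).

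Within the H4 family, the shares of single genes differed between the groups, which is a description without a test. HIST1H4E made up 21.8%, 12.9% and 9.28% of the H4 counts in the hiPSC-EV libraries and 51.5%, 61.2% and 57.0% in the CPC-EV libraries. HIST1H4J, whose count is uncertain because most of its windows are shared, made up 27.4%, 19.6% and 42.7% against 2.70%, 3.76% and 2.35%. HIST1H4I made up 13.5%, 11.9% and 12.2% against 1.99%, 1.39% and 1.71%. For each of the 3 genes the groups did not overlap. In CMi-EV HIST1H4E made up 45.8%, 59.1% and 93.1%, and HIST1H4J had no count. Leaving HIST1H4E out, the summed histone share was still 0.200% ± 0.0672 in hiPSC-EV and 0.819% ± 0.122 in CPC-EV.

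**Figure D4:**
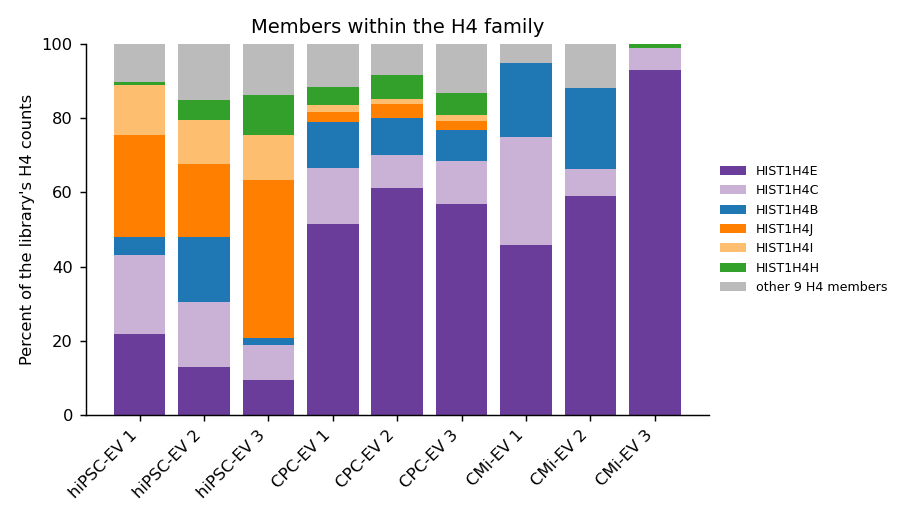
Makeup of the H4 counts in each hiPSC-EV, CPC-EV and CMi-EV library, as stacked bars of the percent taken by 6 named members and by the rest. HIST1H4E takes 51.5 to 61.2% in CPC-EV and 9.28 to 21.8% in hiPSC-EV. HIST1H4J, whose reads may be divided with other genes, takes 19.6 to 42.7% in hiPSC-EV.

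From CPC-EV to CMi-EV HIST1H4E and HIST1H4C fell but were still present, and many other members had no count left. This comparison asked what changed as progenitors became beating cardiomyocytes. Of 52 members tested 36 fell and none rose, and the share of all 2372 features that fell was 27.5%, against 3.04% that rose. Of the 52, 29 had no count in CMi-EV and passed the filter through CPC-EV alone, which fixed their direction, so this count supports nothing about the list. With a count of 0 higher, 44 of the 52 had an unadjusted p under 0.05, beside 927 of all 2372 features, and 1 had a fold change above 0. By family, 13 of 15 H2B, 8 of 12 H2A, 8 of 11 H4, 4 of 10 H3 and 3 of 4 H1 members tested fell. The median log2 fold change was -7.66 for the members, or -4.36 with the 29 members without a count in CMi-EV at their bound, and -1.44 for all features at fitted values. The filter fixed the direction of these 29 and favoured a fall in most others, so the members' median, also at the bound, supports nothing about the list either. DESeq2 called 45 members, beside 1011 of the 2372 features. Without any filter on low values 8 members were called, beside 36 of 24118 features.

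HIST1H4E fell from 2853, 3971 and 2331 CPM to 224.7, 198.1 and 184.3 CPM (log2 fold change -3.82 ± 0.37, FDR = 0.00629). HIST1H4C fell to 142.6, 23.3 and 11.8 CPM (log2 fold change -3.30 ± 0.94, FDR = 0.0315). The CMi-EV libraries of HIST1H4E were close together, while those of HIST1H4C spread with CMi-EV 1 highest. Per kilobase HIST1H4E was at 491.2 CPM in CMi-EV, above its 345.4 CPM in hiPSC-EV.

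The 10 called members with the largest fitted fold changes had no count in any CMi-EV library, so their folds are bounds against 3 counts over the group. HIST1H2AE was at least 129-fold lower, HIST1H4H at least 125-fold, HIST1H2BI at least 85.5-fold, HIST1H2AJ at least 84.3-fold and HIST1H4J at least 65.0-fold. HIST1H3G was at least 58.6-fold lower, HIST1H3B at least 54.4-fold, HIST1H2AK at least 44.3-fold, the linker histone gene HIST1H1E at least 41.0-fold and HIST1H2BC at least 40.9-fold (FDR = 0.0223 for each). In CPC-EV these genes had group means of 102.7 to 323.6 CPM.

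Several members stood at the level of single libraries in CMi-EV and were not called. HIST1H3E was at 193.4 CPM in CMi-EV 1 and had no count in CMi-EV 2 and 3. HIST1H3I was at 101.6 CPM in CMi-EV 1 only, and HIST1H1C at 51.3 CPM in CMi-EV 2 only. HIST1H4B was at 97.7 and 72.3 CPM in CMi-EV 1 and 2 and had no count in CMi-EV 3, the library with the lowest gencode count of its group.

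HIST1H2AM, an H2A gene, was the exception. It measured 25.1, 20.3 and 8.93 CPM in CPC-EV and 52.8, 41.95 and 47.05 CPM in CMi-EV, so the groups did not overlap, but the log2 fold change of 1.47 ± 0.91 did not pass (FDR = 0.269). In CMi-EV 3 its expected count of 12.3 equalled that of HIST1H2AG. That value may be reads divided between the genes, so the lack of overlap is uncertain. In hiPSC-EV it measured 19.04, 31.5 and 34.7 CPM. In CMm-EV it had no count in any library.

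From CMi-EV to CMm-EV only 4 members had enough counts to be tested, and 2 of them fell. The comparison asked what changed as cardiomyocytes matured. Of all 909 features 8.8% fell and 3.41% rose. Both members that fell passed the filter through CMi-EV alone, which fixed their direction, so this count supports nothing about the list. HIST1H4E had 247 counts over the CMi-EV libraries and 1 count over the CMm-EV libraries (FDR = 0.0393), a ratio of 189 scaled for depth with a 95% counting interval of 33.5 to 7479. HIST1H2AM was at least 14.4-fold lower in CMm-EV (FDR = 0.0393). Neither call was made in 5 of the 6 fits that left out 1 library, in the fit on protein_coding features alone or without a filter. Without CMi-EV 3 the members called were 8 of 10 tested, beside 410 of 1465 features.

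CMm-EV held few histone fragments, and most of their counts came from single libraries. HIST1H3E was at 189.7 CPM in CMm-EV 2 and HIST1H3B at 107.1 CPM in CMm-EV 3, with no count in the other CMm-EV libraries. HIST1H3E alone made up 87.0% of the histone counts of CMm-EV 2. CMm-EV 1 had 5.33 histone counts in all.

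Against hiPSC-EV the summed share of the members was lower in CMm-EV, with means of 0.210% and 0.0195% of gencode counts. Of 32 members tested 28 fell and none rose. An unadjusted p under 0.05 was seen in 28 of them, beside 1182 of all 2153 features. DESeq2 called 28 members, beside 1239 of the 2153 features. Only 1 of the 69 members had a count in all 3 CMm-EV libraries, so nearly all of the 32 passed the filter through hiPSC-EV alone, which favoured a fall. Of the 32, 24 had no count in CMm-EV, which fixed their direction. The count that fell therefore supports nothing about the list. Among all 2153 features 43.5% fell and 7.29% rose. By family 8 of 11 H3, 7 of 8 H2A, 7 of 7 H4, 5 of 5 H2B and 1 of 1 H1 members tested fell. The median log2 fold change was -7.35, or -4.09 with the 24 members without a count in CMm-EV at their bound. It was -2.18 for all features and -3.61 for protein_coding features, both at fitted values. The filter fixed the direction of these 24 and favoured a fall in most others, so the members' median, also at the bound, supports nothing about the list either. Without hiPSC-EV 1, the fit tested 50 members and called 45, beside 2262 of 3733 features.

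HIST1H4J was at least 91.7-fold lower, HIST1H4C at least 50.1-fold, HIST1H2AE at least 47.7-fold and HIST1H1C at least 44.96-fold (FDR = 0.00871 for each). HIST1H4I was at least 39.1-fold lower, HIST1H3I at least 32.9-fold, HIST1H2BD at least 32.1-fold, HIST1H4B at least 30.1-fold, HIST1H3F at least 22.2-fold and HIST1H4H at least 19.8-fold, with FDR values from 0.00871 to 0.0153. HIST1H4E had 216 counts in hiPSC-EV and 1 in CMm-EV, a depth-scaled ratio of 123 with an interval of 21.8 to 4881 (FDR = 0.00871). HIST1H2BD, an H2B gene, was among the members with a higher mean in hiPSC-EV (105.6 CPM) than in CPC-EV (31.5 CPM), a difference that did not pass (FDR = 0.245).

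Across the 4 EV groups, 46 of the 55 members tested passed the F-test of edgeR, beside 32.9% of all 3381 features. Of the 69 members 3 had a count in all 3 CMi-EV libraries and 1 in all 3 CMm-EV libraries, so nearly all of the members tested passed the filter through hiPSC-EV or CPC-EV alone, where they were higher, and this count supports nothing about the list. HIST1H4E had the lowest FDR among the members (5.26e-05), followed by HIST1H2AE (0.00257), HIST1H4J (0.00352) and HIST1H4C (0.00774). The 9 members that did not pass were HIST1H2AG, HIST1H2AM, HIST1H2BK, HIST1H3B, HIST1H3D, HIST1H3E, HIST2H2AA3, HIST2H2AA4 and HIST2H2BE. Leaving out 1 library, the members that passed were fewest without hiPSC-EV 3 (16), and they were 24 without hiPSC-EV 1, 30 without hiPSC-EV 2, 28 without CPC-EV 1 and 27 without CPC-EV 2.

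Genes that act with the histones, or in the same phase of the cell cycle, were summed in the same way, and for several lists the comparison of CPC-EV with hiPSC-EV depended on the scaling. As for the members, a listed gene with 0 or 1 count in a group passed the filter only through the other group, which fixed its direction, so counts of such genes support nothing about their list. Replication-independent histone genes, which are made throughout the cell cycle, summed, along the series from hiPSC-EV to CMm-EV, to 464.8 ± 145, 1535 ± 257, 398 ± 307 and 24.1 ± 24.6 CPM. CPC-EV stood 3.30-fold above hiPSC-EV in CPM and 6.02-fold above it as percent of gencode counts. Of the 11 such genes in the table, 4 were tested in CPC-EV against hiPSC-EV and 1 rose, beside 4.45% of all features, namely H3F3A, from 304.7 to 1302 CPM (log2 fold change 2.04 ± 0.37, FDR = 0.0213), while H3F3B stood at 55.8 and 58.6 CPM (FDR = 0.990). H3F3A and H3F3B both encode the variant histone H3.3. Of 4 tested 1 fell from CPC-EV to CMi-EV, near the 27.5% of all features, namely H2AFZ, which encodes the variant H2A.Z and had 1 count in CMi-EV (27.8 to 0.777 CPM, FDR = 0.0279). H3F3A fell from hiPSC-EV to CMm-EV (304.7 to 24.1 CPM, FDR = 0.0221), and H3F3B, without a count in CMm-EV, was at least 17.0-fold lower (FDR = 0.0157).

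DNA replication and S phase genes summed to 484.8 ± 191 CPM in hiPSC-EV and 473.8 ± 177 CPM in CPC-EV, overlapping groups, with 13.1 ± 11.9 CPM in CMi-EV and 69.00 ± 63.6 CPM in CMm-EV. As percent of gencode counts the list was higher in CPC-EV, 0.0553% ± 0.0197 against 0.0299% ± 0.00936 in hiPSC-EV, a 1.85-fold difference of overlapping groups. In CPC-EV against hiPSC-EV 5 of these 24 genes were tested and none passed. PCNA, the replication clamp, was at 82.8 and 83.9 CPM in these groups (FDR = 0.984), and MCM4, a subunit of the replicative helicase, at 68.6 and 39.3 CPM (FDR = 0.722). PCNA was at least 33.4-fold lower in CMi-EV than it was in CPC-EV (FDR = 0.0297), the 1 gene of this list tested there. Of 5 tested in CMm-EV against hiPSC-EV 3 fell, where 43.5% of all features fell, and all 3 were without a count in CMm-EV and so passed the filter through hiPSC-EV alone. MCM4 was at least 20.9-fold, PCNA at least 25.2-fold and UHRF1 at least 5.03-fold lower.

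Genes of G2 and mitosis had their highest mean in hiPSC-EV, with sums of 1422 ± 106 CPM, against 543.3 ± 225, 121.6 ± 99.00 and 19.8 ± 23.96 CPM in the 3 later groups. The libraries of hiPSC-EV and CPC-EV were apart in CPM (1300 to 1490 against 285.9 to 700.7 CPM) but overlapped as percent of gencode counts (0.0510 to 0.152% against 0.0349 to 0.0800%). Of 10 tested 1 fell in CPC-EV, near the 6.58% of all features, namely CCNB1, the mitotic cyclin B1, which had no count there and was at least 37.6-fold lower (FDR = 0.0213). ANLN, a scaffold of the cleavage furrow, was at 671.6 and 204.1 CPM (FDR = 0.125), and the proliferation marker MKI67 at 125.9 and 32.9 CPM (FDR = 0.403). From CPC-EV to CMi-EV 4 of 5 fell, where 27.5% of all features fell, and these 4 passed the filter through CPC-EV alone. ANLN (at least 81.4-fold lower), UBE2C (at least 12.9-fold) and AURKB (at least 8.21-fold) had no count in CMi-EV and CENPF had 1. In CMm-EV against hiPSC-EV 5 of 6 fell, where 43.5% of all features fell, and these 5 passed the filter through hiPSC-EV alone. ANLN (at least 204-fold lower), MKI67, CCNB1 and ASPM had no count in CMm-EV and TOP2A had 1.

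**Figure D5:**
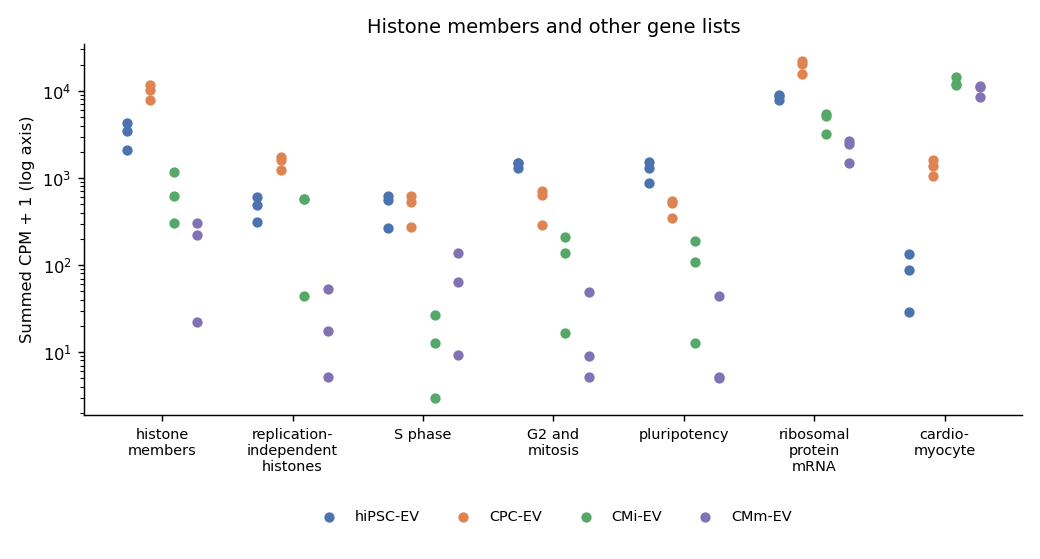
Summed CPM of the histone members and of 6 other gene lists, with 1 added so that the log axis can hold low values. Points are the 3 libraries of each EV group, coloured by group. On this TMM scale histone members, replication-independent histones and ribosomal protein mRNA are highest in CPC-EV, S phase genes overlap between hiPSC-EV and CPC-EV, and G2 and mitosis and pluripotency genes are highest in hiPSC-EV.

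Of the 16 genes for histone mRNA transcription, 3′ processing and decay only CPSF2 was tested, at 47.0 CPM in hiPSC-EV, 15.9 in CPC-EV (FDR = 0.562) and 23.8 in CMm-EV (FDR = 0.668). Of the 14 histone chaperone genes none passed of the 6 tested in CPC-EV against hiPSC-EV or of the 3 tested in CMi-EV against CPC-EV. NAP1L1, which carries H2A and H2B, was at 223.7, 229.4, 179.9 and 116.0 CPM from hiPSC-EV to CMm-EV. NASP, which holds H3 and H4, and RBBP4 had no count in CMm-EV and were at least 17.4-fold and 21.8-fold lower there than in hiPSC-EV (FDR = 0.00871 for both).

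Ribosomal protein mRNA, another set of short abundant messengers, also peaked in CPC-EV, so its values stand beside the histone sums. The 84 genes summed, from hiPSC-EV to CMm-EV, to 8508 ± 668, 19489 ± 3377, 4601 ± 1198 and 2190 ± 610 CPM, CPC-EV thus standing 2.29-fold above hiPSC-EV, and as percent of gencode counts 4.00-fold (2.28% ± 0.338 against 0.572% ± 0.220). Of 77 tested 9 rose in CPC-EV and none fell, beside 4.45% of all features that rose and 6.58% that fell. Their median log2 fold change was 0.91, beside 1.36 for the histone members. Some of those members passed the filter through CPC-EV alone, which favoured a rise, so the medians are not ranked. Per 100 ribosomal protein counts there were 26.7, 49.9 and 38.5 histone counts in hiPSC-EV and 50.5, 53.3 and 50.4 in CPC-EV. The CPC-EV libraries lay just above the highest hiPSC-EV library. The same ratio was 22.8, 11.3 and 9.42 in CMi-EV and 1.48, 8.28 and 12.4 in CMm-EV. Whether the rise of both sets has 1 source was not tested.

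Markers of other cell types moved with the groups as well. The pluripotency list summed in the same order to 1230 ± 324, 472.1 ± 106, 102.8 ± 89.0 and 16.9 ± 22.3 CPM, with hiPSC-EV and CPC-EV overlapping as percent of gencode counts (0.0593 to 0.0899% against 0.0400 to 0.0667%), and 3 of 10 tested fell in CPC-EV, beside 6.58% of all features (NANOG with no count there, L1TD1 and TERF1 with 1 each). The RNA-binding protein gene LIN28A did not pass there, at 298.2 and 280.6 CPM (FDR = 0.900). Of the cardiac progenitor list GATA4 and HAND2, both heart transcription factors, rose in CPC-EV over hiPSC-EV, where neither had a count, by at least 23.8-fold and 37.3-fold. The fibroblast and smooth muscle list summed to 173.6 ± 133 CPM in hiPSC-EV and 635.2 ± 89.2 in CPC-EV, a difference that lay mostly in FN1. FN1, which encodes fibronectin, had a mean of 71.7 CPM in hiPSC-EV and 518.6 CPM in CPC-EV and rose (log2 fold change 2.79 ± 0.70, FDR = 0.0406), a call made in 5 of 12 alternative fits. COL1A1, the other gene of the list tested, had means of 20.7 and 61.8 CPM and did not pass (FDR = 0.519). Of the genes not tested, ACTA2 had a higher mean in CPC-EV (5.07 and 22.7 CPM). The means of TAGLN (35.5 and 4.73 CPM), COL1A2 (18.4 and 7.64 CPM) and COL3A1 (22.2 and 19.7 CPM), also not tested, were lower there. The part of these cell types in the histone values was not tested.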

How the data were processed

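Small RNA of 12 EV preparations was sequenced by the authors on a NextSeq 500. Per the labels the build was hg38, and per the study's methods reads were assigned with exceRpt. The annotation version is not given in the sources used here. The deposited gencode table holds expected counts. The RPM deposited by the authors (reads scaled to library totals) served 1 alternative. The members and all gene lists were chosen with earlier results of these data known.

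Counts were rounded. Features that reached 5 CPM throughout the 3 libraries of any group were tested on their own 6 libraries (12 for the F-test) with the quasi-likelihood test of edgeR 4.0.16 in R 4.3.3 (TMM scaling, Benjamini-Hochberg adjustment over all gencode features tested). A call needs an FDR up to 0.05 and, between 2 groups, an absolute log2 fold change from 1 upwards. SE are the fold change divided by the square root of F. When this procedure was tested on simulated data with known changes, the share of false calls was above the nominal rate in each of the 4 comparisons between groups. Named are HIST1H4E, the 12 members with the highest mean CPM, up to 10 called members per comparison, and for each list the genes called and the 2 highest. Other members were named after their values were seen.

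Alternatives were median-of-ratios scaling, protein_coding features only, no filter, 5 counts, DESeq2 1.42.0, a replicate block, each library left out and, added after seeing the data, all transcript types of a histone symbol summed. No pair of libraries was identical.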

Additional observations from a re-analysis of the deposited data

Results flagged for a closer look

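Entries with a histone symbol but another transcript type, such as nonsense-mediated decay or processed transcripts, stand outside the 69 members and also carried counts. These 26 entries took 0.123% ± 0.0161 (SD, n = 3) of the gencode counts in CPC-EV, above the 0.0246% ± 0.00902 of hiPSC-EV, the 0.00892% ± 0.00359 of CMi-EV and the 0.000169% ± 0.000293 of CMm-EV. Reads that match both a protein_coding entry and one of these were divided between them by the authors' counting. All transcript types of a histone symbol were also summed, an alternative chosen after seeing the data. In CPC-EV against hiPSC-EV 6 members were then called, beside 338 of 3047 features, and the 5 called before were among them.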

How the results depend on the processing

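The direction of the 81 gene results examined (each a named gene called in 1 comparison) held in the 1046 fits under alternatives, of which 875 kept the call and 171 lost it. Median-of-ratios scaling gave 3 members and 334 features called in CPC-EV against hiPSC-EV. A filter of 5 counts gave 3 members and 328 features there, and 70 features in CMm-EV against CMi-EV. DESeq2 called 16 members and 683 features in CPC-EV against hiPSC-EV and 184 features in CMm-EV against CMi-EV. With protein_coding features only, 372 features were called in CMi-EV against CPC-EV and 0 features and 0 members in CMm-EV against CMi-EV. Without a filter the features called were 62, 36, 3 and 68 and the members 1, 8, 0 and 5 in CPC-EV against hiPSC-EV, CMi-EV against CPC-EV, CMm-EV against CMi-EV and CMm-EV against hiPSC-EV, and 172 and 20 in the F-test. More features tested, up to 35180, enter that adjustment.

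With each library left out, the same 4 comparisons and the F-test gave 0 to 660, 794 to 1512, 0 to 410, 1285 to 2262 and 477 to 1683 features and 0 to 6, 32 to 39, 0 to 8, 27 to 45 and 16 to 49 members. The log2 ratio of the summed share stayed within 2.26 to 2.75, -4.73 to -3.65, -2.31 to -1.19 and -3.81 to -2.95. It was 1.76 for CPC-EV over hiPSC-EV as percent of protein_coding counts. Over all 5 RNA classes it was -4.64 for CMi-EV over CPC-EV, -3.46 for CMm-EV over CMi-EV and -5.50 for CMm-EV over hiPSC-EV, and in RPM -4.55, -3.39 and -5.43. Without TMM scaling the log2 ratios of CPC-EV over hiPSC-EV were 1.58 for H1, 1.77 for H2A, 1.81 for H2B, 2.29 for H3 and 3.22 for H4. The median log2 fold change of all features in CPC-EV against hiPSC-EV was 0.11 with TMM, -0.03 with median-of-ratios and -0.30 with protein_coding features only, beside 1.36, 1.24 and 1.31 for the members. Some of these members passed the filter through CPC-EV alone, which favoured positive values, so their medians support nothing about the list.

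Deviations from the group means were nearly uncorrelated between same-numbered libraries (18 correlations from -0.0619 to 0.0730). With 3 libraries per group this cannot exclude that same-numbered libraries came from the same run, so whether the numbers pair them is not known. With a replicate block, 0 features and 0 members were called in CPC-EV against hiPSC-EV and in CMm-EV against CMi-EV, and 26 features and 6 members in CMi-EV against CPC-EV. The causes of these shifts were not tested. Gencode depth was lower in CMi-EV and CMm-EV, where most members had no count, and its part in this was not tested.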
